A study of Drosophila melanogaster with 18 samples.

Results

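Dam-PolII occupancy was compared between the whole mesoderm and the visceral mesoderm (VM) of Drosophila melanogaster embryos in which signalling through the receptor tyrosine kinase Alk was blocked. The members are 6 of the 18 samples of the series, chosen by their labelled driver and transgene. In 3 samples, twi2xPE-GAL4 drove expression throughout the mesoderm (twi Alk.DN), and in the other 3 samples bap-GAL4 drove it in the VM (bap Alk.DN). By the labels and the paper's design, both groups carried UAS-Dam-PolII together with UAS-Alk.DN. Dam-PolII is a bacterial DNA adenine methyltransferase fused to RNA polymerase II. Alk.DN is a MYC-tagged extracellular domain of Alk that acts as a dominant negative. Embryos were at stages 10 to 13, and each sample was genomic DNA of whole embryos, so that a GAL4 driver alone restricted the methylation to a tissue. The remaining samples carried Dam-PolII alone or Dam-PolII with the ligand Jeb, under the same drivers.

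In targeted DamID, the fusion protein methylates the adenine of GATC where it meets chromatin, and methylated fragments are recovered and sequenced. Counts at the GATC sites of a gene therefore serve as a proxy of polymerase occupancy. The trunk VM is the part of the mesoderm that makes the gut musculature. Its cells express the homeobox gene bap and the FoxF gene bin, and Jeb from the neighbouring somatic mesoderm activates Alk in the cells that become muscle founders. The whole mesoderm also holds the precursors of somatic muscle, heart, fat body and blood, and the twi driver reaches the VM as well.

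The deposited table held between 9519342 and 14095376 counts in the twi Alk.DN libraries, against 4275192 to 5292768 in the bap Alk.DN libraries. Counts were found at 280005 to 293631 sites with twi and at 180927 to 196104 sites with bap. Depth therefore separated the drivers completely, and thinning all libraries to the shallowest total gave nearly the same number of genes called, 1068 in place of 1062. The strongest sites holding 50% of the counts numbered 10426 to 11202 with twi, against 7786 to 8057 with bap. In the other libraries of the series they numbered 1275 to 4241. Thinning equalises the totals and not this spread over sites, and its part in the calls was not tested. Over the 14386 genes tested, the correlation of log2 levels ran between 0.984 and 0.989 among twi libraries and between 0.921 and 0.935 among bap libraries, and it ran between 0.921 and 0.937 across the drivers. The labels number the replicates without stating how they were separated, so that p-values measure the spread between these samples. The title of bap Alk.DN replicate 3 names no group, and its group came from its other label fields.

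The libraries were checked for the transgenes. Exons of jeb held 20, 19.1 and 23.7 CPM (counts scaled to a library total of 1000000) in the twi Alk.DN libraries, against 28.2, 20.3 and 12 CPM in the bap Alk.DN libraries, so neither group carried a jeb transgene signal. Exons of Polr2A, the gene of the large catalytic subunit of the polymerase, held 31.8 to 52.6 CPM in these 6 libraries, against 157 to 2088 CPM in the 12 other libraries. In Alk.DN, its 50 exon sites averaged 39.6 CPM with twi and 42.7 CPM with bap. Its 4 sites outside exons averaged 41.6 and 65.1 CPM. Polr2A exon counts thus did not show the Dam-PolII transgene in these 6 libraries. That their counts follow polymerase occupancy rests on the labels. Exons of Alk, part of which UAS-Alk.DN contains, held 44.9, 39 and 39.6 CPM in the twi Alk.DN libraries, against 213, 535 and 56.4 CPM in the bap Alk.DN libraries. The groups did not overlap at Alk exons, and the bap libraries varied widely among themselves. In the libraries labelled Dam-PolII, which lack Alk.DN by label, Alk exons held 124, 34.4 and 35.6 CPM with twi and 85.8, 130 and 241 CPM with bap. Every twi Alk.DN library lay within that twi range, and of the bap Alk.DN libraries only replicate 2 lay above that bap range. Alk exon counts thus did not show the Alk.DN transgene in most of these 6 libraries. The labels were kept, and the part that a low transgene signal plays in the results below was not tested.

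When the counts of all GATC sites in a gene were summed, 1062 of 14386 genes differed between the drivers, or 7.38% (edgeR quasi-likelihood F-test, Benjamini-Hochberg adjusted p under 0.01). Of these, 268 genes (1.86% of those tested) were higher with twi and 794 genes (5.52%) were lower with twi. The libraries of the groups did not overlap at any of the 268 or at 792 of the 794, so non-overlap adds little to a call. The median log2 fold change over all genes was 0.02, and every log2 fold change is twi over bap after TMM scaling, while levels are given in CPM of all counts. With total counts in place of TMM, the median moved to 0.18 and the calls to 509 higher and 532 lower, so the excess of lower genes depended on the scaling. In 1 fit to all 18 libraries, which share 1 estimate of the spread, only 26 genes were called, whereas a fit to the 12 libraries labelled Alk.DN or Dam-PolII, added after the data were seen, called 1235. Leaving out a single twi library lowered the number of calls to 483 to 564. In bulk material, fewer cells of a type and less occupancy per cell cannot be told apart.

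Genes of VM identity and of visceral founder cells were lower with twi, that is, higher with bap. Of the 15 listed genes, 11 fell with twi, none rose and 4 were not called. Their median log2 fold change was -0.85. The list was chosen with earlier results of these data known. Its members Kah, fax and CG11658 are candidate Alk targets that the paper picked from its own analysis of this series. The count is thus a description of the list and not independent support. Summed over the list, the twi Alk.DN libraries held 3709 to 3936 CPM, against 5919 to 6667 CPM in the bap Alk.DN libraries. The largest difference was at Hand, a bHLH factor of visceral founder cells and heart. Hand held 18, 13.4 and 15.5 CPM in the twi Alk.DN libraries, against 55.9, 65 and 83.9 CPM in the bap Alk.DN libraries. Every bap library stood above every twi library, and the log2 fold change was -2.28 (SE 0.22, edgeR adjusted p 4.2e-05). All 4 tested sites of Hand were lower with twi, with 1 called, and a single site carried 65% of the bap counts.

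The FoxF gene bin, required for VM development, held 49.9, 46.1 and 40.4 CPM in the twi Alk.DN libraries, against 108, 95 and 101 CPM in the bap Alk.DN libraries. The groups did not overlap, and the log2 fold change was -1.31 (SE 0.15, edgeR adjusted p 0.000139). Over the whole gene, 9 of the 13 tested sites of bin were lower with twi and 4 of them were called, while its sites outside exons together gave -0.02 (edgeR adjusted p 0.971). The homeobox gene H2.0 held 133, 111 and 114 CPM with twi, against 293, 299 and 285 CPM with bap. Its log2 fold change was -1.45 (SE 0.11, edgeR adjusted p 8.12e-06), and all 17 of its tested sites were lower with twi, 8 of them called. Fas3, an immunoglobulin-domain adhesion molecule of the VM, held 385, 373 and 347 CPM with twi, against 685, 771 and 756 CPM with bap. Of its 60 tested sites, 57 were lower with twi, and the gene fell by 1.16 on the log2 scale (SE 0.08, edgeR adjusted p 4.88e-06).

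**Figure D1:**
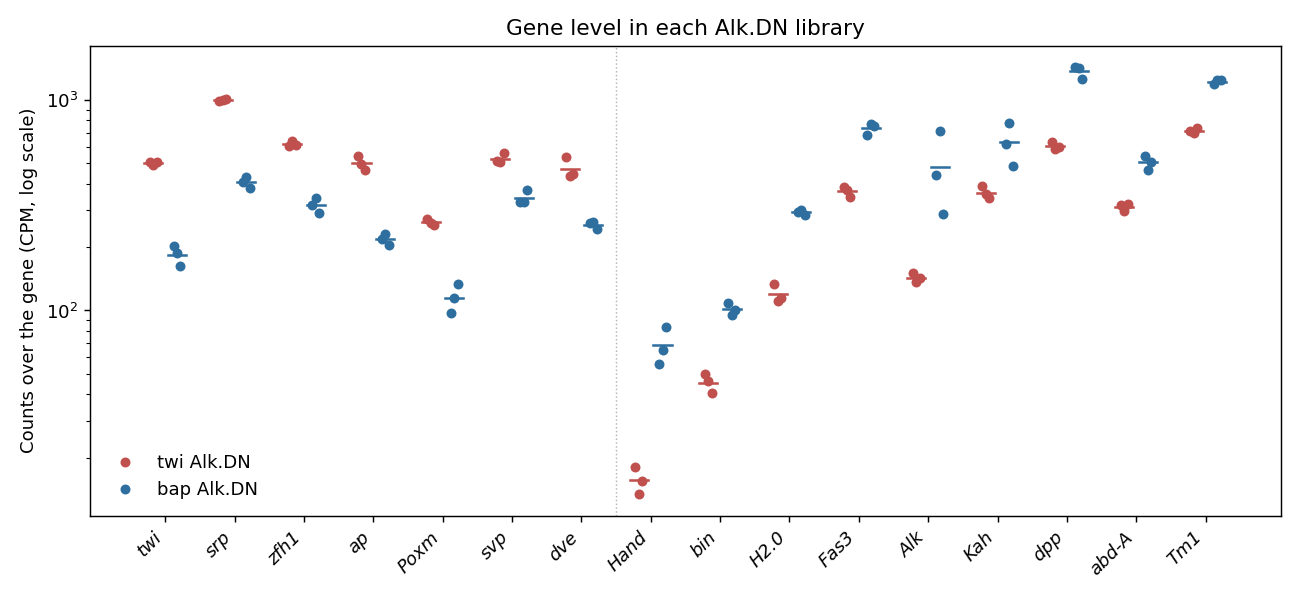
Counts over each gene in CPM (log axis) for 16 genes, with 1 point per library, twi Alk.DN left of bap Alk.DN for each gene, and a bar at the mean of 3 libraries. The 7 genes left of the dotted line are higher in every twi library, the 9 genes right of it are higher in every bap library, and Alk is the most scattered among the bap libraries.

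Alk itself held 151, 136 and 142 CPM in the twi Alk.DN libraries, against 441, 713 and 288 CPM in the bap Alk.DN libraries. Its log2 fold change was -1.90 (SE 0.24, edgeR adjusted p 0.000309). The transgene adds Alk exon sequence but none from outside the exons, and sites outside exons held 107, 97.1 and 102 CPM with twi, against 228, 178 and 232 CPM with bap. The endogenous part of the locus was thus also lower in every twi library, and the log2 fold change there was -1.12 (edgeR adjusted p 3.56e-05).

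Other VM genes differed less. mib2, an E3 ubiquitin ligase of myoblasts, fell by 1.00 on the log2 scale. Kah, a Snail family zinc finger factor, held 390, 357 and 341 CPM with twi, against 620, 781 and 487 CPM with bap, and fell by 0.95 (SE 0.14, edgeR adjusted p 0.000796). The membrane protein gene fax fell by 0.85, CG11658 by 0.78, the neuregulin-like EGFR ligand vn by 0.76 and the Netrin gene NetB by 0.63. NetB is the least firm of these, since it was lost with total counts (-0.46, edgeR adjusted p 0.012) and when any twi library was left out. When only sites within 1 kb of the gene start were summed, the calls of Kah (-0.54), fax (-0.21), CG11658 (-0.64), vn (-0.52) and NetB (-0.55) were lost, while Hand, bin, H2.0, Fas3, Alk and mib2 were still called.

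The driver gene bap, an NK homeobox factor, held 24.3, 25.2 and 29.8 CPM in the twi Alk.DN libraries, against 27.2, 36.5 and 56.2 CPM in the bap Alk.DN libraries. The groups overlapped and the difference was not called (log2 fold change -0.75, SE 0.26, edgeR adjusted p 0.079). org-1, a T-box factor of visceral founder cells, held 114, 116 and 116 CPM with twi, against 125, 122 and 96.6 CPM with bap. Its levels overlapped over the whole gene (-0.14, edgeR adjusted p 0.538), although its sites within 1 kb of the start were lower with twi (-1.13, edgeR adjusted p 0.00153). HLH54F, a bHLH factor of the caudal visceral mesoderm (-0.31), and the mesodermal beta tubulin betaTub60D (-0.08) were not called either. With 1 fit to all 18 libraries, only Hand and H2.0 of this list were still called.

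On the VM list, the GATC fragment beside the site with the smallest adjusted p was looked up at called genes other than Alk. It lay in an intron and was at most 300 bp long at H2.0, Kah, CG11658 and vn. These fragments are shown to let the sequence beside the strongest site be read, together with that of Poxm, which rose. They are written 5′ to 3′ on the forward strand of release 6 from the RefSeq genome, with GATC ends in capitals, and capitals inside a fragment mark TAAACA or its reverse complement TGTTTA, the core letters bound by Fox factors.
H2.0, 2L:6014380-6014541, intron: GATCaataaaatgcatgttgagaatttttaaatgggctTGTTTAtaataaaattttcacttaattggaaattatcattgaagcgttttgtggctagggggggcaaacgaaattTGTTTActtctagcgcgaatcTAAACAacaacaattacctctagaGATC
Kah, 3L:588271-588458, intron: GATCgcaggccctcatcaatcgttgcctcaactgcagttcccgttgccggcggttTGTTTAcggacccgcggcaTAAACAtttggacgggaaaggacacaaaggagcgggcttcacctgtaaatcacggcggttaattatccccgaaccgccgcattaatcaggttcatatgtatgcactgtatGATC
CG11658, 3L:11703521-11703626, intron: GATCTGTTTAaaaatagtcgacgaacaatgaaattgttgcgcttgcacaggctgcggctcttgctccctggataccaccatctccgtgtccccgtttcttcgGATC
vn, 3L:5829301-5829549, intron: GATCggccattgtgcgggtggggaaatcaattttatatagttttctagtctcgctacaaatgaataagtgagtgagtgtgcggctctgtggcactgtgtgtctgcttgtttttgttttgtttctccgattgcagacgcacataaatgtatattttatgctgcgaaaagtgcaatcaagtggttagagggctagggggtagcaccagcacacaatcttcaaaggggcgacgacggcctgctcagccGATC
Poxm, 3R:8330866-8331038, intron: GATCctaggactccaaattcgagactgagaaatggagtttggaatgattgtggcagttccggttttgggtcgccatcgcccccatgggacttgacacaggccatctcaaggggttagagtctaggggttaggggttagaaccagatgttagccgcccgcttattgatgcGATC
The left end of the H2.0 fragment held 4.6, 4.41 and 4.61 CPM with twi, against 16.1, 15 and 21.6 CPM with bap, whereas its right end held under 1 CPM in each library. This fragment lies 5022 bp from the gene start and holds 3 copies of the Fox core. The left end of the Kah fragment, 1003 bp from the start and with 2 copies, held 52.9, 45.4 and 50.7 CPM with twi, against 106, 109 and 78.6 CPM with bap. The right end of the CG11658 fragment, 4930 bp from the start and with 1 copy, held 43.1, 54.8 and 51.4 CPM with twi, against 120, 96.6 and 136 CPM with bap. The left end of the vn fragment, 16363 bp from the start and with no copy, held 35.8, 48.1 and 47 CPM with twi, against 129, 166 and 167 CPM with bap. In the Poxm fragment, which also holds none, the left end had 25.9, 23.5 and 25.2 CPM with twi, against 6.99, 7.49 and 8.22 CPM with bap. The other end held 15.2, 15.9 and 16.5 CPM with twi at Kah, against 40.1, 52.4 and 24.9 CPM with bap. At CG11658 it held 29.8, 24.7 and 24.8 CPM, against 32.7, 37.2 and 25.2 CPM. At vn it held 48.8, 34.4 and 31.4 CPM, against 35.3, 35.8 and 52.6 CPM. At Poxm it held 11.8, 8.4 and 8.8 CPM, against 1.89, 9.36 and 7.27 CPM. The groups overlapped at the other end at H2.0, CG11658, vn and Poxm, so those fragments were not shown to differ over their length. Genes on the chromosome arm that holds Alk, among them the called genes ap, HnRNP-K and Mef2, were left out of this choice. Among the other named genes, 13 called genes that fell and 5 that rose had an intronic fragment chosen in the same way. The core letters were found in 5 of the 13 and in none of the 5. Fragments were 18 to 265 bp long for genes that fell and 16 to 211 bp long for genes that rose. The presence of these letters in 3 of the fragments shown is thus not general to the genes that fell.

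Over single GATC sites, 3113 of 106339 differed between the drivers (2.93%), with 919 higher and 2194 lower with twi. On the chromosomes, sites lower with twi lay in introns more often than the tested sites as a whole, at 51.2% of 2171 sites against 36.5% of 105511, and less often in exons, at 27.8% against 40.5%. Sites higher with twi lay between genes in 34% of cases, against 23% of all tested sites. The 304 bp window around a site held TAAACA on either strand for 37.9% of sites lower with twi, for 20.7% of sites higher with twi and for 24% of all tested sites, while the mean GC content was 44.1%, 44.6% and 43.9% in the same order. Outside exons, the shares with TAAACA were 40.4%, 22.2% and 27.5%. The GATA core AGATAA was found at 14.7% of sites lower with twi, at 20.4% of sites higher with twi and at 15.6% of all. CAGGTG, an E-box, was found at 13.9% of sites lower with twi, at 6.64% of sites higher with twi and at 12.8% of all. The other 3 motifs searched were closer between the directions. CAAGTG was found at 23% of sites lower with twi, at 22.2% of sites higher with twi and at 19.6% of all, CATATG at 10.8%, 9.9% and 8.63%, and CTATTT at 23.5%, 19.7% and 20.5% in the same order. All motifs were searched on both strands. Neighbouring sites share windows and genes, so these shares are a description of the called sites. A match of letters is not a binding site.

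**Figure D2:**
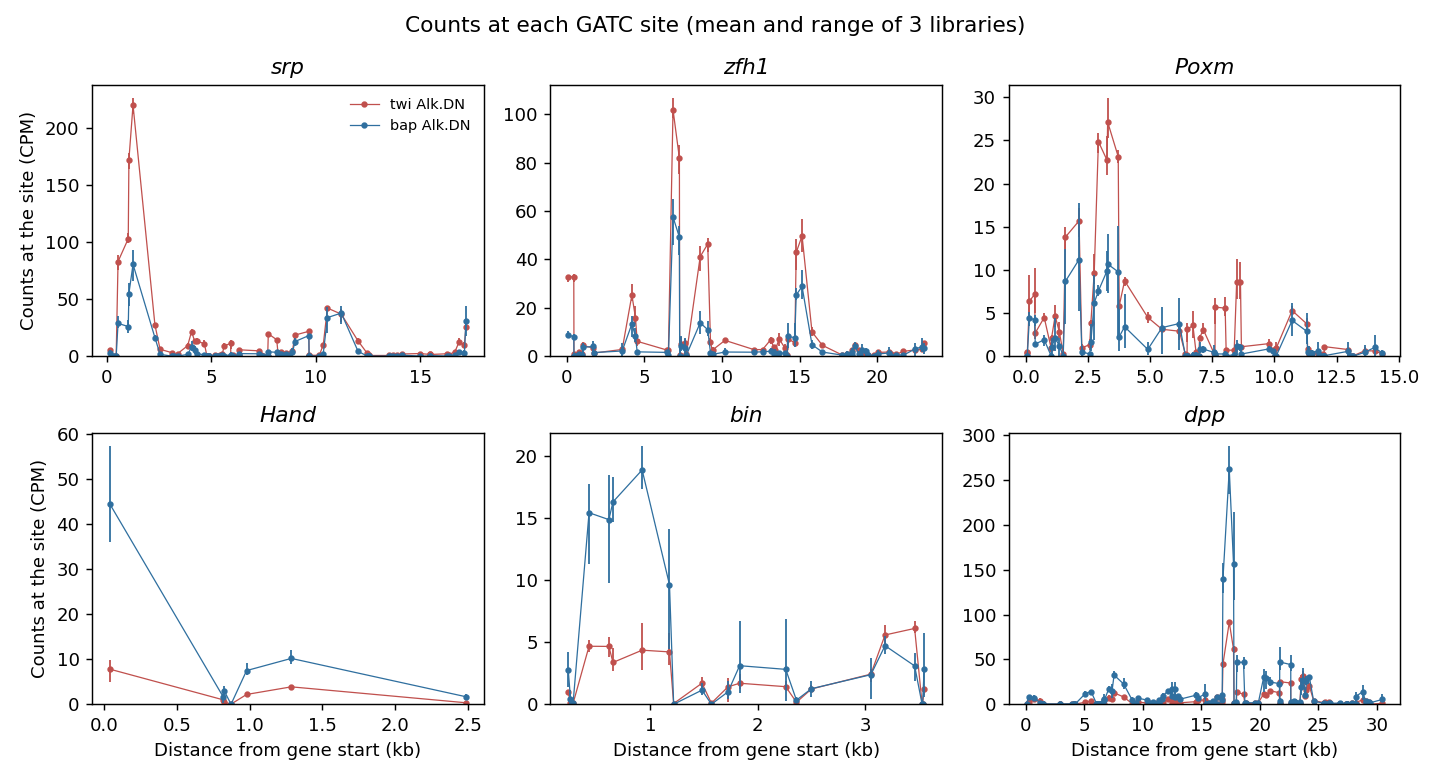
Counts in CPM at each GATC site (points: mean of 3 libraries, vertical lines: their range) against distance from the gene start in kb, for twi Alk.DN (red) and bap Alk.DN (blue). The twi libraries are higher over the main peaks of srp, zfh1 and Poxm, and the bap libraries are higher at the start of Hand, over the 5′ part of bin and in a dpp intron, where the strongest site held 235 to 288 CPM with bap.

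Among genes that act across the mesoderm, twi and zfh1 were higher with twi, and Mef2 and how were lower. twi, the bHLH factor that specifies mesoderm, held 506, 493 and 507 CPM in the twi Alk.DN libraries, against 202, 187 and 163 CPM in the bap Alk.DN libraries. It rose by a log2 fold change of 1.29 (SE 0.10, edgeR adjusted p 8.03e-06), a call that was lost near the gene start (1.41, edgeR adjusted p 0.106). The twi2xPE driver contains regulatory sequence of this gene, and counts from the driver and from the locus cannot be told apart. zfh1, a zinc finger homeodomain factor, held 606, 639 and 608 CPM with twi, against 316, 341 and 289 CPM with bap. Its libraries did not overlap, with a log2 fold change of 0.81 (SE 0.08, edgeR adjusted p 5.79e-05). Among the 11 genes of the early and general mesoderm, 2 rose and 2 fell. The genes that fell were the muscle factor Mef2 (-0.62, edgeR adjusted p 0.000288) and how, an RNA-binding protein of muscle (-0.41, edgeR adjusted p 0.000898). Both calls were lost with abundance-dependent loess offsets (Mef2 -0.26, how -0.08), and near the gene start their values were 0.27 for Mef2 and 0.02 for how.

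The FGF receptor gene htl held 515, 484 and 493 CPM with twi, against 541, 558 and 615 CPM with bap. Although its libraries did not overlap, the difference of -0.36 was just outside the threshold (SE 0.08, edgeR adjusted p 0.0119), and it was called with DESeq2, limma-voom and size factors. sna, a zinc finger factor of the early mesoderm, held 9.11, 12 and 7.87 CPM with twi, against 4.16, 3.04 and 3.25 CPM with bap, and was not called at this depth (1.30, SE 0.40, edgeR adjusted p 0.0474).

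Of 16 somatic muscle identity factors, 3 rose with twi and none fell. The median log2 fold change was 0.36, and 14 of the 16 had a value above 0. This depended on the sites summed, since near the gene start the median was -0.10 with 1 call, while total counts and sites outside exons gave 7 calls each. The summed list held 3878 to 4012 CPM in the twi Alk.DN libraries, against 2718 to 3056 CPM in the bap Alk.DN libraries. ap, a LIM homeodomain factor, held 540, 499 and 463 CPM with twi, against 218, 232 and 204 CPM with bap, and rose by 1.04 (SE 0.09, edgeR adjusted p 2.66e-05). The Pax gene Poxm held 273, 260 and 254 CPM with twi, against 97.5, 114 and 134 CPM with bap, with a log2 fold change of 1.03 (SE 0.13, edgeR adjusted p 0.00024). Of the 30 tested sites of Poxm, 28 were higher with twi, but near the gene start Poxm was not called (0.49, edgeR adjusted p 0.126), whereas ap was. nau, the fly homologue of MyoD, rose by 0.62 (SE 0.11, edgeR adjusted p 0.00258), but this call was lost when any twi library or bap replicate 2 was left out, and near the gene start the value was -0.03.

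The largest rise among the fat body and blood genes was at srp, a GATA factor needed for both tissues. srp held 987, 997 and 1011 CPM in the twi Alk.DN libraries, against 407, 431 and 380 CPM in the bap Alk.DN libraries. Its libraries were far apart, with a log2 fold change of 1.14 (SE 0.07, edgeR adjusted p 2.24e-06), and 36 of its 38 tested sites were higher with twi, 9 of them called. Of the 12 genes of this list, 1 rose, with a list median of 0.43, while 1.86% of all genes tested rose. More were called higher in other settings, with 3 by total counts (srp, lz and Pvr), 3 by loess offsets (srp, ush and Pvr) and 4 both by DESeq2's Wald test and at sites outside exons (srp, lz, Pvr and crq). Ppn, which encodes the extracellular matrix protein papilin, fell. Ppn held 170, 145 and 163 CPM with twi, against 319, 312 and 360 CPM with bap, and its log2 fold change was -1.21 (SE 0.11, edgeR adjusted p 2.64e-05). Among 14 genes of the heart and dorsal mesoderm, zfh1 and svp rose and Hand fell. The nuclear receptor gene svp held 511, 508 and 559 CPM with twi, against 328, 326 and 374 CPM with bap, and its value of 0.46 (SE 0.09, edgeR adjusted p 0.0049) was lost when any library but bap replicate 3 was left out.

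**Figure D3:**
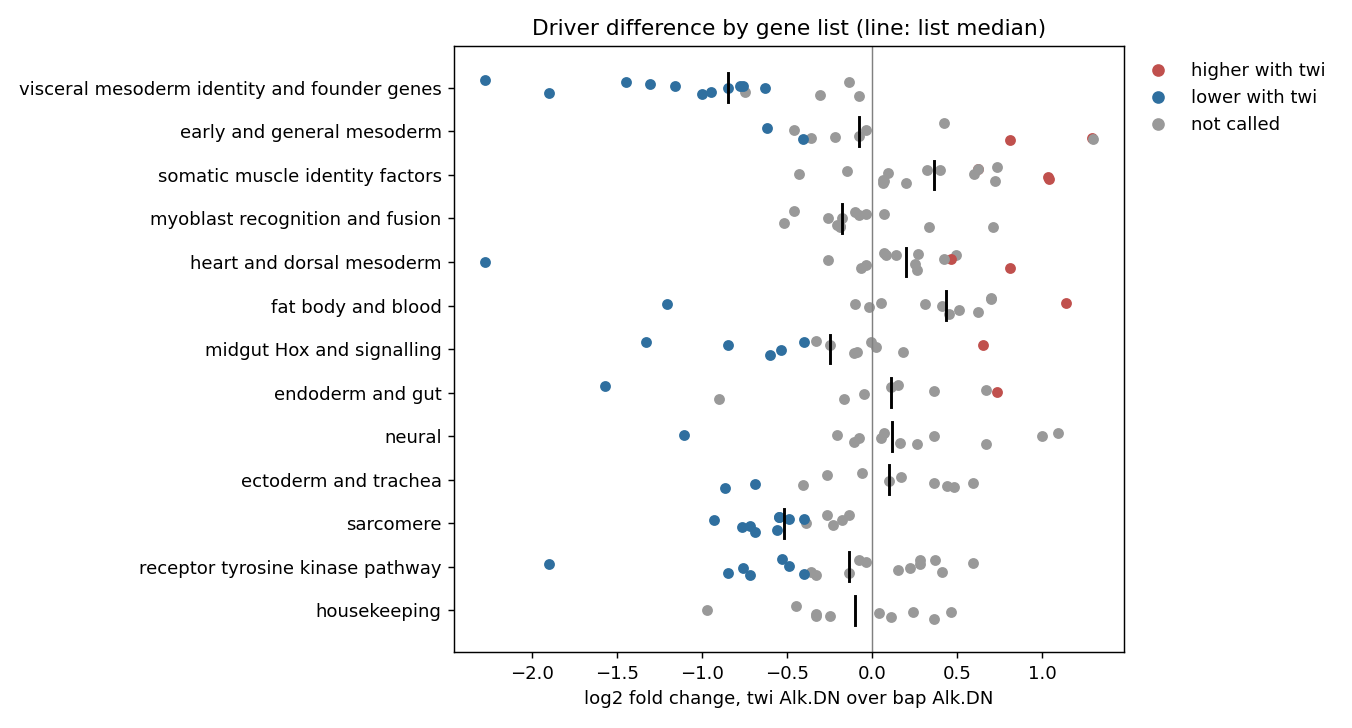
The log2 fold change of twi Alk.DN over bap Alk.DN for each member of 13 gene lists, coloured by call (adjusted p under 0.01), with the list median as a black line. Genes of VM identity and the sarcomere lie at or below 0 throughout, and somatic muscle factors lie mostly above 0. No member of the fusion and housekeeping lists was called, where 7.38% of all genes tested were.

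Genes that pattern the midgut were mixed. Of 13 Hox and signalling genes, 5 fell and 1 rose with twi, with a median log2 fold change of -0.25. dpp, the BMP ligand that the VM secretes, held 633, 588 and 596 CPM in the twi Alk.DN libraries, against 1430, 1412 and 1260 CPM in the bap Alk.DN libraries. Each bap library held more than each twi library, and dpp fell by 1.33 on the log2 scale (SE 0.07, edgeR adjusted p 1.37e-06), with 12 of its 65 tested sites called lower and none called higher. The site with the smallest adjusted p, 17399 bp from the gene start, held 89.8, 94 and 91 CPM with twi, against 264, 288 and 235 CPM with bap. The Hox gene abd-A held 316, 298 and 320 CPM with twi, against 544, 467 and 506 CPM with bap, a fall of 0.85 (SE 0.09, edgeR adjusted p 7.39e-05). Scr (-0.60), the Zic factor opa (-0.54) and the ETS factor pnt (-0.40) fell as well, and all 3 calls were lost with total counts (Scr -0.44, opa -0.37, pnt -0.24) and with loess offsets. Near the gene start no gene of the list was called among 11 tested, with -1.10 for dpp (edgeR adjusted p 0.0177) and -1.11 for abd-A (edgeR adjusted p 0.118). The posterior Hox gene Abd-B held 373, 380 and 385 CPM with twi, against 234, 231 and 188 CPM with bap, and rose by 0.65 (SE 0.10, edgeR adjusted p 0.00123), whereas its sites near the gene start gave -0.27. wg, the Wnt ligand of the midgut, was not called (0.02, edgeR adjusted p 0.955).

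Markers of tissues that neither driver should reach were measured in the same libraries. Over all genes tested, 1.86% were higher and 5.52% lower with twi, so a single call in a list of this size is close to that share. Among 12 neural genes, none rose and 1 fell (2 rose with total counts and with loess offsets), and their summed level was 1296 to 1330 CPM in the twi Alk.DN libraries, against 1194 to 1218 CPM in the bap Alk.DN libraries. The neural gene that fell was the synaptotagmin Syt1 (-1.11, edgeR adjusted p 3.48e-05), with 0.20 at its sites outside exons. Among 11 genes of ectoderm and trachea, the apical polarity gene crb (-0.87, edgeR adjusted p 0.000367) and the ligand hh (-0.69, edgeR adjusted p 0.000861) fell, and the summed level overlapped between drivers, at 1417 to 1426 CPM with twi and 1379 to 1419 CPM with bap. Among 9 endoderm and gut genes, the homeobox gene dve rose (0.73, edgeR adjusted p 0.000743) and the forkhead gene fkh fell (-1.57, edgeR adjusted p 0.000976), fkh with 1 tested site that carried 83.5% of its bap counts. The summed level of this list was 1172 to 1272 CPM with twi, against 895 to 923 CPM with bap. Every member of these lists was above the floor of 3 counts in each library, and their part in the results was not tested.

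Sarcomere genes were lower with twi, with 9 of 14 called lower, none called higher and a median log2 fold change of -0.52. Summed over the list, they held 4729 to 4977 CPM in the twi Alk.DN libraries, against 6401 to 6643 CPM in the bap Alk.DN libraries. The tropomyosin gene Tm1 held 711, 697 and 737 CPM with twi, against 1187, 1238 and 1242 CPM with bap. Its groups did not overlap, and it fell by 0.93 (SE 0.06, edgeR adjusted p 4.14e-06). The Z-disc gene Zasp52 fell by 0.77, the neighbouring tropomyosin Tm2 by 0.72, the titin homologue sls by 0.69, the myosin light chain Mlc1 by 0.56, troponin I (wupA) by 0.55, myosin heavy chain (Mhc) by 0.55, the nesprin Msp300 by 0.49 and the giant kinase bt by 0.40. At bt, 50 of 78 tested sites were higher with twi and 28 lower, and a single site, the 1 called, carried 50.8% of the bap counts, so its value rests on that site. The call of bt was lost with total counts (-0.24). The number of sarcomere calls was 6 with total counts, 3 with loess offsets and 0 in the fit to all 18 libraries.

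No gene of the myoblast recognition and fusion list was called by edgeR, although 7 of 13 had an unadjusted p under 0.05. With DESeq2 2 of them were called lower, and with limma-voom 2 were. The small transmembrane protein gene sing came nearest, with 99.9, 96.9 and 101 CPM in the twi Alk.DN libraries, against 116, 138 and 130 CPM in the bap Alk.DN libraries (-0.52, SE 0.12, edgeR adjusted p 0.0133). sns, the adhesion molecule of fusion-competent myoblasts, held 568, 523 and 508 CPM with twi, against 494, 477 and 501 CPM with bap, a difference that was not called (-0.04, SE 0.08, edgeR adjusted p 0.822). lmd, the zinc finger factor of the same cells, held 163, 174 and 168 CPM with twi, against 135, 118 and 107 CPM with bap, and was not called either (0.33, edgeR adjusted p 0.0853). None of the 10 housekeeping genes was called by edgeR, DESeq2 or limma-voom, and 2 had an unadjusted p under 0.05 in edgeR. Their median was -0.10, with single genes between -0.97 and 0.46. The summed level overlapped at 463 to 472 CPM with twi and 420 to 527 CPM with bap. Over all genes tested 7.38% were called, so the absence of calls in lists of 13 and 10 genes is near that share.

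Of 19 genes of receptor tyrosine kinase pathways, 7 fell and none rose with twi, at a median of -0.14. The balance depended on the scaling, since total counts (median 0.02) and loess offsets (median 0.09) each gave 4 lower and 3 higher. The receptor genes Pvr, Egfr and InR were those called higher, with 0.57, 0.44 and 0.31 by total counts. Besides Alk, vn and pnt, the genes that fell were ligands and their processing enzyme. The FGF ligand ths fell by 0.72 (SE 0.10, edgeR adjusted p 0.000489), the EGFR ligand spi by 0.49, the PDGF/VEGF-like ligand Pvf3 by 0.53 and rho, the protease that releases spi, by 0.85. The calls of spi (-0.32) and rho (-0.68) were lost with total counts, and the values near the gene start were 0.01 for ths and 0.37 for Pvf3. The Alk ligand gene jeb held 69.5, 78.4 and 87.4 CPM with twi, against 55.7, 63.2 and 62 CPM with bap. Its libraries did not overlap, but the difference was not called (0.22, SE 0.15, edgeR adjusted p 0.379).

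By size alone, the largest rise among the genes named by rule was at RpLP2, a ribosomal stalk protein gene at 2R:16586129-16586732. RpLP2 held 155, 159 and 151 CPM in the twi Alk.DN libraries, against 21.2, 7.49 and 13 CPM in the bap Alk.DN libraries. Its log2 fold change was 3.31 (SE 0.27, edgeR adjusted p 1.31e-05), and 1 of its 3 sites carried 93.9% of the counts with twi, so the value rests on a single site. RpLP2 lies 38561 bp from Alk. The noncoding lncRNA:CR45911 held 153, 161 and 143 CPM with twi, against 21.5, 32.7 and 42.8 CPM with bap (2.07, SE 0.21, edgeR adjusted p 6.29e-05), and all 9 of its sites were higher. The RNA-binding protein gene HnRNP-K held 187, 165 and 170 CPM with twi, against 58.4, 60.3 and 42.8 CPM with bap (1.54, SE 0.15, edgeR adjusted p 5.2e-05), with 19 of 20 tested sites higher. E(spl)m2-BFM, a Bearded family gene of the Notch-responsive E(spl) complex, held 55.9, 66.8 and 66.1 CPM with twi, against 17.8, 19.9 and 17.8 CPM with bap (1.61, SE 0.18, edgeR adjusted p 0.000141), and a single site, the 1 called, carried 73.7% of the twi counts. The other 8 genes with the largest rises had log2 fold changes between 1.48 and 2.42.

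Among the genes named by the same rule, which asks for a call, at least 3 sites and at least 50 CPM in the higher group, the largest fall was at CG15891 (X:6294517-6295345), with 19.8, 17.9 and 17.1 CPM in the twi Alk.DN libraries, against 193, 261 and 151 CPM in the bap Alk.DN libraries. Its log2 fold change was -3.62 (SE 0.20, edgeR adjusted p 1.37e-06), and 97.8% of its counts with bap lay at a single site. Archease (3R:21661186-21662972), a cofactor of RNA ligation, held 26.9, 22.4 and 24.1 CPM with twi, against 176, 137 and 208 CPM with bap (-2.98, SE 0.18, edgeR adjusted p 1.93e-06), and a single site carried 89.7% of the bap counts. SsRbeta, a subunit of the translocon-associated complex, held 14.3, 14.4 and 16.9 CPM with twi, against 63.9, 66 and 65 CPM with bap (-2.25, SE 0.18, edgeR adjusted p 1.17e-05), with 86% of the bap counts at a single site. CG14131 held 54.8, 52 and 58.1 CPM with twi, against 208, 221 and 263 CPM with bap (-2.23, SE 0.13, edgeR adjusted p 1.71e-06), with 5 of 6 tested sites lower. CG32388 fell by 2.07 and lies 6036 bp from bin, and 96.6% of its bap counts lay at a single site. AstA-R2, an allatostatin receptor gene, fell by 1.97 with 8 of 9 tested sites lower, although its sites near the gene start gave 0.38. Hand was the only listed VM gene among the 12 largest falls.

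Sequences outside the chromosome arms also differed. The mitochondrial genome held 0.0768%, 0.0664% and 0.0717% of the counts in the twi Alk.DN libraries, against 0.238%, 0.208% and 0.194% in the bap Alk.DN libraries, and all 12 mitochondrial genes tested fell with twi (log2 fold change -2.55 to -1.15). The ribosomal DNA repeats held 1.78%, 1.59% and 1.67% of the counts with twi, against 0.819%, 0.755% and 0.824% with bap, and 10 of 14 of its genes rose. Arm 3L held 19.4% to 19.6% of the counts with twi, against 20.4% to 20.6% with bap. It gave 39 genes higher and 181 lower, or 1.39% and 6.46% of its genes tested, against 1.86% and 5.52% over all genes. The groups did not overlap in any of these shares of counts, and their part in the results for single genes was not tested. This was not particular to 3L, since the shares of 2L, 3R, 4 and X did not overlap either, while those of 2R and Y did.

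The same driver comparison was made without Alk.DN, in the 3 twi and 3 bap libraries labelled Dam-PolII, which share no library with the comparison above. The bap libraries labelled Dam-PolII held 389, 374 and 474 CPM in exons of jeb, which goes against their label, so their values are given as those of the libraries so labelled. There, 3414 of 12318 genes were called (27.7%), 1423 higher (11.6%) and 1991 lower (16.2%) with twi. Of the 10 housekeeping genes, 6 were called higher and 1 lower there, with a median log2 fold change of 0.99, against 0.07 over all genes. The part of this shift in the Dam-PolII values given below was not tested. Of 12155 genes tested in both, 822 were called in both, which is 78.4% of the Alk.DN calls and 24.3% of the Dam-PolII calls. Of these 822 genes, 193 were higher and 608 lower with twi in both, and 21 had opposite signs. The sign was the same for 97.4% of them, against 67.3% of all 12155 genes. Over the 12155 genes, the log2 fold changes had a Pearson correlation of 0.474 and a Spearman correlation of 0.471, across genes that are not independent.

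The difference between the driver differences was tested by an interaction term over the 12 libraries, which called 1460 of 14962 genes (9.76%). It was called for 3 of the 10 housekeeping genes. The spread of log2 fold changes over genes was smaller in Alk.DN (SD 0.70) than in Dam-PolII (SD 1.23), and among the 801 genes called in both with the same sign, 614 had the smaller value in Alk.DN. Polr2A exons held 31.8 to 52.6 CPM in the Alk.DN libraries. They held 267, 269 and 260 CPM in the twi libraries labelled Dam-PolII, against 2072, 2043 and 2088 CPM in the bap libraries so labelled. The transgene signal thus differed between the drivers in Dam-PolII. Its part in the driver difference there, in the interaction and in the narrower range in Alk.DN was not tested. Genes of the VM differed in how far they followed this. For Hand, the driver difference was -2.28 in Alk.DN and -1.67 in Dam-PolII, and for bin it was -1.31 and -1.63, and the interaction was called for neither (edgeR adjusted p 0.088 for Hand and 0.213 for bin). For Fas3 it was -1.16 in Alk.DN, against -2.45 in Dam-PolII (interaction 1.34, SE 0.11, edgeR adjusted p 1.48e-08). For H2.0 it was -1.45 in Alk.DN, against -2.11 in Dam-PolII (interaction 0.70, SE 0.13, edgeR adjusted p 0.000496).

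The founder cell factor org-1 showed the largest change of this kind on the VM list. Its driver difference was -0.14 in Alk.DN, against -2.02 in Dam-PolII, where it averaged 166 ± 8.83 CPM with twi and 567 ± 35.7 CPM with bap (SD, n = 3 each). The interaction was 1.92 (SE 0.15, edgeR adjusted p 8.9e-09). On the side of the whole mesoderm, srp differed by 1.14 in Alk.DN, against 2.75 in Dam-PolII (interaction -1.57, SE 0.10, edgeR adjusted p 3.59e-10). twi differed by 1.29, against 2.55 (interaction -1.22, SE 0.14, edgeR adjusted p 1.27e-06). ap, Poxm, svp, nau, zfh1 and dve moved in the same way as srp. The fusion gene sns had no called driver difference in Alk.DN (-0.04) but one of 2.34 in Dam-PolII, and lmd had 0.33 and 2.22. Ppn and Mef2 had a called difference in Alk.DN and none in Dam-PolII, with -1.21 for Ppn in Alk.DN against 0.07 in Dam-PolII (interaction -1.24, SE 0.13, edgeR adjusted p 7.51e-07), and -0.62 for Mef2 in Alk.DN against 0.00 in Dam-PolII (interaction -0.58, SE 0.11, edgeR adjusted p 0.000462).

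**Figure D4:**
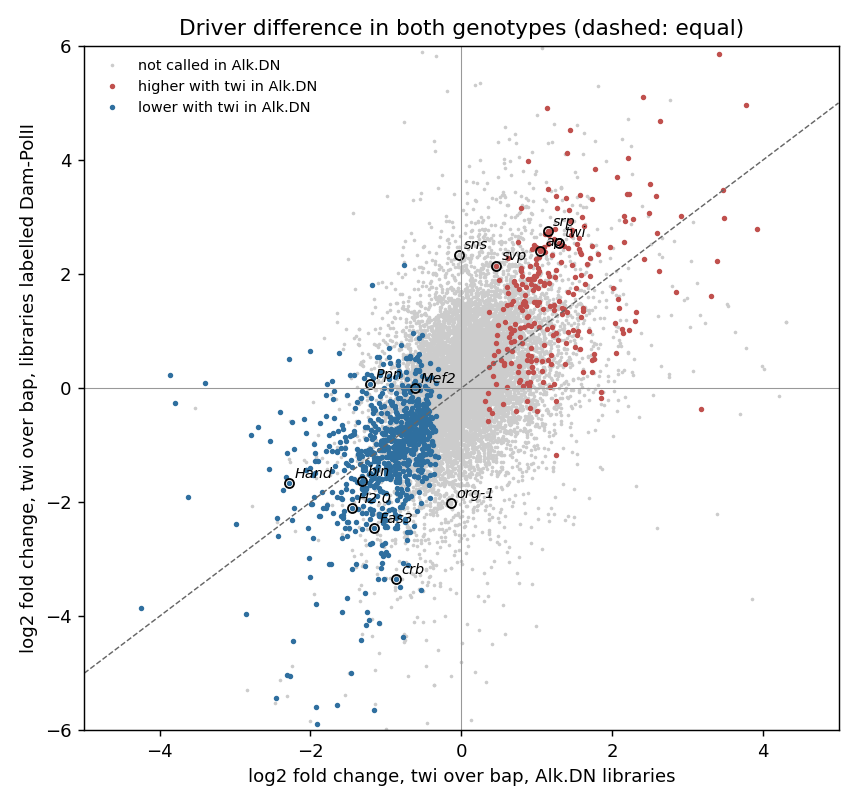
The log2 fold change of twi over bap in the Alk.DN libraries (x axis) against that in the libraries labelled Dam-PolII (y axis), 1 point per gene for 12127 genes, with 28 outside the axes. Genes called in Alk.DN are coloured by direction and the dashed line marks equal values. Most called genes have the same sign in both, and many lie on the Dam-PolII side of the line, such as srp, svp, Fas3 and crb.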

How the data were processed

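The series profiled Dam-PolII occupancy by targeted DamID in 18 libraries of stage 10 to 13 embryos. Per the paper's methods, read pairs were mapped with bowtie2 to FlyBase release 6. The authors deposited the raw counts of all libraries in a single table of 400733 GATC sites. Per the labels, base calling used CASAVA 1.4, and limma was used for the deposited peak tables. Those hold p-values and FDRs of the authors' own comparisons with Dam-PolII and were not used here. The 383661 GATC positions on the chromosome arms, 4, X and Y matched the RefSeq release 6 genome, and the other 17072 sites were not checked.

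Counts were summed over the GATC sites within each of 17873 annotated genes (Ensembl, release 6), of which 16306 have a site. Sites in several overlapping genes were counted in each, without strand. Genes passing filterByExpr (min.count 10) in the libraries compared were scaled by TMM and tested with the quasi-likelihood F-test of edgeR 4.0.16 in R 4.3.3, two-sided, fitted to the 6 Alk.DN libraries alone, and called at a Benjamini-Hochberg adjusted p under 0.01. The same was done per site, for the libraries labelled Dam-PolII, and for the interaction over 12 libraries. SE are of the log2 fold change. The fit was also run on simulated counts with the same spread in both groups. That run does not bear on how the fit behaves where the groups differ in spread, as they do here.

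Genes named were all members of 14 lists, plus the 12 highest and 12 lowest log2 fold changes among called genes on the arms whose groups did not overlap, with at least 3 sites and a mean of at least 50 CPM in the higher group. The text describes a part of them. The lists and members were chosen with earlier results of these data known. Alternatives were DESeq2 1.42.0 (size factors and Wald test), total counts, loess offsets, limma-voom 3.58.1, other filters and site sets, thinning to 4275192 counts, all 18 libraries, a replicate block and leaving out each library. Precision follows from 4275192 to 14095376 counts per library, and 3 counts were taken as the floor, which covers counting error only. No 2 replicates agreed within sampling noise (chi-square of 2.37 to 7.54 per degree of freedom over sites).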

Additional observations from a re-analysis of the deposited data

Results flagged for a closer look

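The following genes differed in their driver difference between Alk.DN and the libraries labelled Dam-PolII, by the interaction term (edgeR adjusted p under 0.01, called for 9.76% of genes). Values are the log2 driver difference (twi over bap) in Alk.DN minus that in Dam-PolII. The bap libraries labelled Dam-PolII carry jeb exon counts, and more Polr2A exon counts than the twi libraries so labelled. The part of these in each value was not tested.

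Among genes lower with twi in Alk.DN, the interaction was positive for H2.0 (0.70), Fas3 (1.34), dpp (0.38), Scr (0.69), opa (1.52), crb (2.53), Zasp52 (1.30), CG14131 (2.24) and asRNA:CR43243 (1.35), so that their driver difference was smaller in Alk.DN than in Dam-PolII. It was negative for Mef2 (-0.58), Ppn (-1.24), sls (-0.57), Mlc1 (-0.84), CG15891 (-1.66) and SsRbeta (-1.62), whose difference in Alk.DN was the larger.

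Among genes higher with twi in Alk.DN, it was negative for twi (-1.22), zfh1 (-0.62), ap (-1.32), Poxm (-1.23), nau (-1.02), svp (-1.64), srp (-1.57), dve (-1.04), HnRNP-K (-0.95) and Cyp4p2 (-1.78). It was positive for RpLP2 (1.74), whose rise of 3.31 in Alk.DN compared with 1.61 in Dam-PolII.

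Several genes without a called driver difference in Alk.DN had one in Dam-PolII. The interaction was 1.92 for org-1 and 1.39 for wg. It was -1.45 for bap, -0.57 for betaTub60D, -1.43 for htl, -2.34 for sns and -1.84 for lmd. It was 3.91 for jeb and 2.39 for Polr2A, genes that transgenes of the series contain.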

How the results depend on the processing

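With DESeq2's Wald test 1940 genes were called, and at an adjusted p under 0.05 there were 2142 genes, 9416 sites and 2340 genes for the interaction. Sites outside exons gave 689 genes, and 1 fit to all 18 libraries gave 26. For single sites, min.count 50 gave 5271 calls, every site with at least 1 count gave 7601 and limma-voom 5627. Leaving out 1 library gave 483 to 1346 genes, with 483 (without twi replicate 2), 492 (without twi replicate 3) and 564 (without twi replicate 1) the lowest, and 594 to 3593 sites. Without bap replicate 1, 1783 sites were called. The causes were not tested.

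Scaling moved the balance of directions. With total counts, 48.9% of called genes were higher with twi in place of 25.2%, as were 39.9% in place of 29.5% of called sites and 60.8% in place of 41.7% of called genes in Dam-PolII, and the interaction was positive for 43% in place of 58.2%. Loess offsets gave 388 genes higher and 536 lower.

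Of 182 named genes over 20 alternatives, 162 values lost the call and 61 of these were in the fit to all 18 libraries. The direction reversed with loess offsets for hth (0.25), and near the gene start for AstA-R2 (0.38), Mef2 (0.27), how (0.02), nau (-0.03), Abd-B (-0.27), pnt (0.40), ths (0.01) and Pvf3 (0.37). Outside exons it reversed for stumps (0.44) and Syt1 (0.20).

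Replicate numbers did not pair the samples, since deviations of same-numbered libraries correlated at 0.001, 0.003 and -0.004. With the replicate block, 1156 genes and 2104 sites were called in Alk.DN, 3367 genes in Dam-PolII and 1445 in the interaction, and Mlc1 was the 1 named gene that lost its call. Not every library correlated best with its own number.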

Other observations

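Some called genes lay outside the lists, and those given here were chosen after their values were seen. dally, a glypican that modulates Dpp and Wg signalling, held 503.8, 572.8 and 546.6 CPM in the twi Alk.DN libraries, against 1505, 1442 and 1616 CPM in the bap Alk.DN libraries. It fell by 1.65 on the log2 scale (SE 0.07, edgeR adjusted p 6.07e-07), and its groups did not overlap. The Wnt receptor gene fz2 held 1939, 1882 and 1858 CPM with twi, against 3014, 3040 and 3029 CPM with bap, a fall of 0.83 (SE 0.05, edgeR adjusted p 1.71e-06). The FGF ligand bnl fell by 1.00 (SE 0.06, edgeR adjusted p 2.29e-06).

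The alpha integrin scb held 210.3, 223.9 and 200 CPM with twi, against 433, 400.9 and 474.6 CPM with bap, and fell by 1.20 (SE 0.10, edgeR adjusted p 1.06e-05). The talin gene rhea held 482.2, 507.3 and 507.7 CPM with twi, against 885.9, 791.1 and 945.7 CPM with bap, and fell by 0.97 (SE 0.08, edgeR adjusted p 1.37e-05). In the other direction, the Notch inhibitor numb held 510.7, 476.4 and 436.5 CPM with twi, against 270.6, 203.3 and 167.3 CPM with bap, with a log2 fold change of 0.99 (SE 0.15, edgeR adjusted p 0.00096). The homeobox gene Ptx1 held 223.5, 234.6 and 200.9 CPM with twi, against 97.3, 77.19 and 75.34 CPM with bap, a log2 fold change of 1.24 (SE 0.13, edgeR adjusted p 7.97e-05).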
